A study of Mus musculus with 9 samples.

Results

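The 10 genes described here encode immune checkpoint molecules and proteins that mark or serve regulatory T cells: *Pdcd1*, *Cd274*, *Pdcd1lg2*, *Ctla4*, *Lag3*, *Havcr2*, *Tigit*, *Foxp3*, *Icos* and *Il2ra*. They were taken by name, matched by Entrez identifier, from the 18755 genes of a count table of RNA sequencing of 4T1 primary tumors, and all 10 were in the table. 4T1 is a cell line from a murine mammary tumor, and 1000000 of its cells were injected into mammary fat pad number 9 of female BALB/c mice aged 6 to 10 weeks. From day 15 after injection the mice received, for 5 days, either the vehicle Natrosol (0.5%) or the focal adhesion kinase (FAK) inhibitor BI 853520 at 50 mg/kg, called BI below. RNA came from snap-frozen pieces of 3 vehicle-treated tumors (replicates 1 to 3) and 6 BI-treated tumors (replicates 4 to 9). Per the paper, tumors were kept for analysis only where the quality of their RNA was sufficient. All tumors thus stem from 1 injected cell line in 1 mouse strain. The labels do not state that each tumor came from a separate mouse, so that p-values measure the spread between these tumors. Whether the 10 genes changed their mRNA level under the inhibitor, and whether they did so together with the T cell markers of the same tumors, were the questions asked of the comparison.

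Immune checkpoints are pairs of receptors and ligands that restrain or support a T cell after its antigen receptor has been engaged. PD-1 (*Pdcd1*) is an inhibitory receptor of activated T cells and binds PD-L1 (*Cd274*) and PD-L2 (*Pdcd1lg2*) on tumor and myeloid cells, while CTLA-4 (*Ctla4*) competes with the activating receptor CD28 for CD80 and CD86. Regulatory T cells, which depend on the transcription factor FOXP3, dampen other T cells and carry CD25 (*Il2ra*), CTLA-4 and ICOS at high levels. These proteins are also found on other activated T cells, so that none of these transcripts except *Foxp3* is a marker of a single cell type.

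Total counts per tumor lay between 16931607 and 33850245, and all 10 genes passed the filter on low counts that left 13966 genes for testing. The lowest count of any of the 10 genes in any tumor was 56. Replicates of a group differed by more than sampling noise, with a mean chi-square per gene between pairs of tumors of 8.48 to 28.5 within groups and of 32.4 to 75.7 between groups. Markers of the tumor cells themselves (the epithelial list, with *Krt8* and *Krt18*) were present, with a summed level of 964 to 1190 CPM (read counts scaled to the library size and normalized with TMM) in vehicle-treated and 757 to 966 CPM in BI-treated tumors. T cell markers were present in every tumor as well and were higher under BI, with 15 of 16 rising and none falling. Across all genes, 14.6% rose and 14.1% fell in the test described below. The summed level of the markers was 191 to 221 CPM under vehicle and 330 to 432 CPM under BI. A large part of it was *Thy1* alone, with means of 97.3 and 139 CPM. In such bulk tumor RNA, a change in the number of cells of a type and a change in RNA per cell cannot be told apart.

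Of the 10 genes, 5 were higher in BI-treated tumors, 1 was lower and 4 did not pass the test (quasi-likelihood test of edgeR, called at 0.05 after Benjamini-Hochberg adjustment across the whole table). *Pdcd1*, *Pdcd1lg2*, *Lag3*, *Havcr2* and *Icos* rose and *Tigit* fell, whereas *Il2ra*, *Ctla4*, *Foxp3* and *Cd274* did not pass. Among all genes tested, 28.7% passed in either direction, 14.6% as higher and 14.1% as lower. At an unadjusted p of at most 0.05 with a fold of at least 1.5, 4 of the 10 genes were higher, where 9.57% of all genes were, and 1 was lower, where 3.57% of all genes were. The same 5 risers lay above every vehicle-treated tumor in all 6 BI-treated tumors, as did 14.1% of all genes, and *Tigit* lay below in all 6, as did 14% of all genes. The median log2 fold change of the 10 genes was 0.52, beside -0.0037 for all genes. Without vehicle replicate 3, 3 of the 10 genes rather than 5 passed as higher, because *Pdcd1lg2* (adjusted p = 0.0512) and *Icos* (adjusted p = 0.061) then missed the edgeR threshold. Calls fell across the whole table in that fit, with 1332 of 14129 genes higher, where the fit on all tumors had 2040 of 13966.

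**Figure D1:**
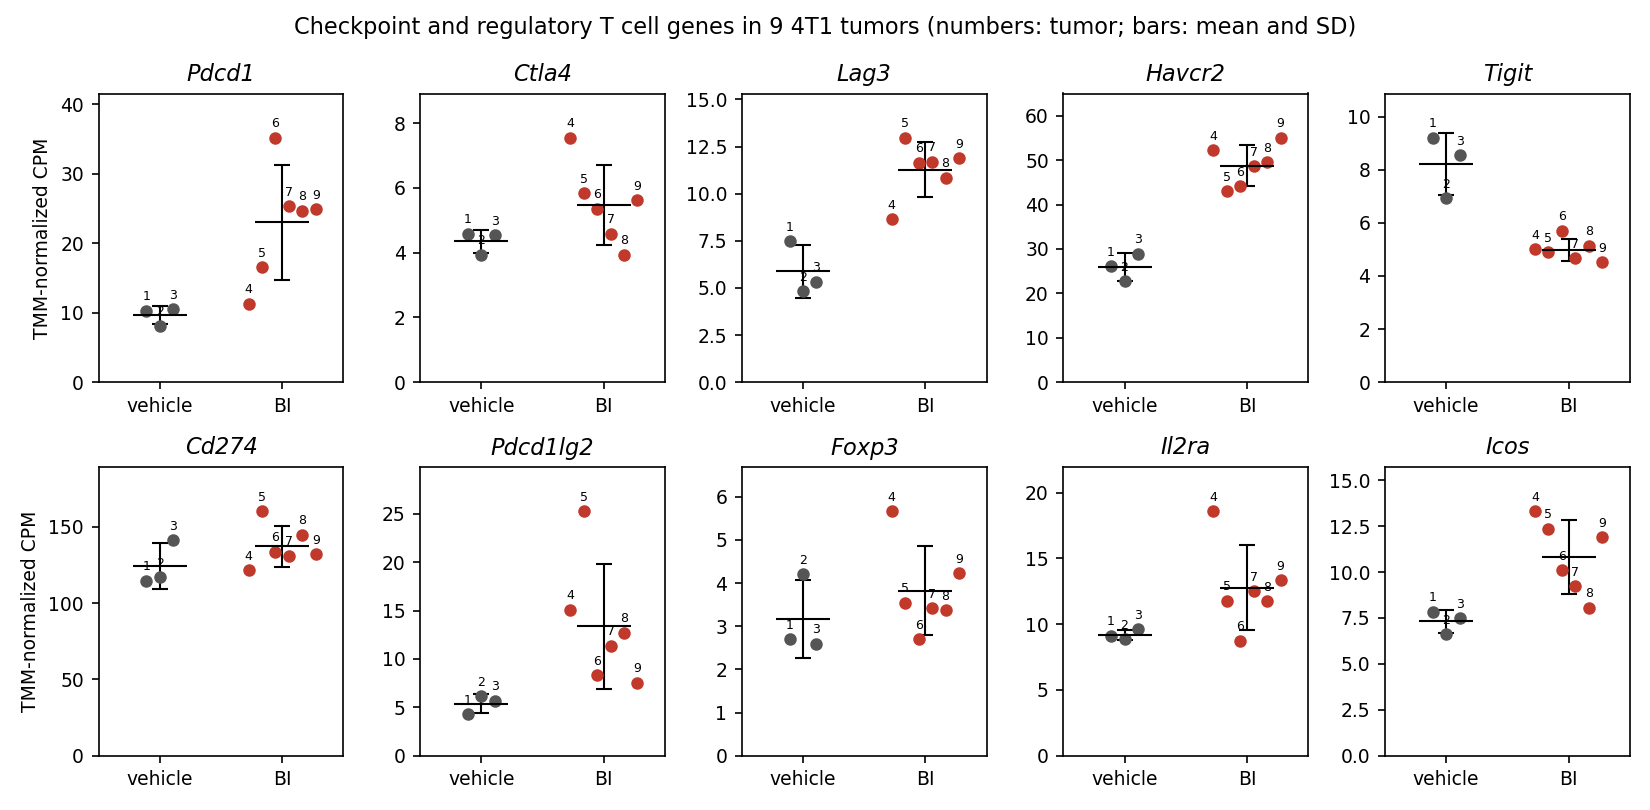
TMM-normalized CPM (y axis, from 0) of the 10 genes in the 3 vehicle-treated (grey) and 6 BI-treated (red) tumors, with tumor numbers, the mean and the SD. *Pdcd1*, *Lag3*, *Havcr2*, *Pdcd1lg2* and *Icos* did not overlap between groups and were higher under BI, *Tigit* did not overlap and was lower, and the other 4 genes overlapped.

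Of the 5 inhibitory receptors, 3 rose, beside 14.6% of all genes tested. *Pdcd1* (chr1:95934884-95949130 on mm9, minus strand) was at 10.3, 8.14 and 10.5 CPM in vehicle-treated tumors 1 to 3, and at 11.3 (lowest), 24.8 (median) and 35.2 CPM (highest) in the 6 BI-treated tumors. The groups did not overlap, but BI replicate 4 was close to the vehicle-treated tumors and BI replicate 6 stood above the rest. The rise was 2.37-fold (95% interval 1.54 to 3.65, log2 fold change 1.25 with a standard error of 0.29, adjusted p = 0.0073, edgeR). The coefficient of variation of *Pdcd1* over the BI-treated tumors was 35.9%, where counting error alone gives about 4.94%, so that most of this spread lay between tumors.

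*Lag3*, which encodes an inhibitory receptor for MHC class II on activated T cells, lies beside *Cd4* in the genome (chr6:124854379-124861723 on mm9, minus strand). It was at 7.47, 4.83 and 5.33 CPM in the vehicle-treated tumors and between 8.645 and 12.98 CPM (median 11.7) under BI. Each BI-treated tumor was above each vehicle-treated one, and the rise was 1.92-fold (1.51 to 2.45, adjusted p = 0.0013, edgeR). *Havcr2* encodes TIM-3, a receptor found on exhausted T cells and also on macrophages and dendritic cells (chr11:46268437-46294757 on mm9, plus strand). Its level was 26.1, 22.7 and 28.9 CPM in the vehicle-treated tumors and between 43.0 and 55.1 CPM (median 49.05) under BI. The groups were widely apart, with the narrowest interval among the 5 risers, at 1.88-fold (1.62 to 2.18, adjusted p = 7.84e-05, edgeR).

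*Tigit* alone among the 10 genes fell. It encodes an inhibitory receptor of T and NK cells that competes with the activating receptor CD226 for CD155 (*Pvr*) and CD112 (*Nectin2*), and is located at chr16:43648974-43664297 on mm9, minus strand. The vehicle-treated tumors had 9.21, 6.93 and 8.54 CPM and the BI-treated tumors between 4.52 and 5.70 CPM (median 4.955). All 6 BI-treated tumors lay below all 3 vehicle-treated tumors and close together, with a coefficient of variation of 8.26%, near the 10.2% that counting error gives. The level under BI was 0.607-fold that under vehicle (0.502 to 0.732, adjusted p = 0.0014, edgeR), and the gene passed as lower in each of the 16 alternative fits.

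The other genes of the CD226 axis split into receptors that rose and ligands that fell. *Cd226* was at 2.59 ± 0.51 CPM (SD, n = 3) under vehicle and 6.35 ± 1.30 CPM (SD, n = 6) under BI, and was 2.47-fold higher (adjusted p = 9.26e-04, edgeR). *Cd96*, a receptor that shares the ligand CD155, rose 2.695-fold (adjusted p = 6.07e-04, edgeR). *Pvr* went from 92.6 ± 3.0 to 67.0 ± 3.6 CPM (log2 fold change -0.47, adjusted p = 1.65e-04, edgeR), and *Nectin2* from 57.2 ± 2.8 to 40.3 ± 2.4 CPM (-0.51, adjusted p = 1.90e-04, edgeR). *Tigit* thus moved in the direction of its ligands and opposite to the receptors that share them. Within a tumor, the log2 ratio of *Tigit* to *Cd226* in CPM was 1.64 under vehicle and -0.32 under BI. The group means differed by -1.96 and the groups did not overlap (lower in 6 of 6 tumors under BI). Each BI-treated tumor was already below all vehicle-treated tumors in *Tigit* and above them in *Cd226*, so that the ratio had to separate the groups. Its p was thus the smallest that the 84 divisions of the tumors allow (exact permutation p = 0.0238, two-sided) and adds nothing to the single genes. The ratio did not pass when adjusted over the 10 ratios tested (adjusted p = 0.119).

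The promoters of *Pdcd1* and *Tigit* are shown because these receptors of activated T cells moved in opposite directions. They were chosen after the values were seen and come from RefSeq (GRCm38.p6), 250 bases before to 50 bases after the start of the gene and 5′ to 3′ on the strand of the gene, at chr1:94052504-94052803 (minus strand) for *Pdcd1* and chr16:43664135-43664434 (minus strand) for *Tigit*. Capitals mark the core letters GGAAA of sites for NFAT, a factor downstream of the T cell receptor, or the same letters on the other strand (TTTCC).
Pdcd1: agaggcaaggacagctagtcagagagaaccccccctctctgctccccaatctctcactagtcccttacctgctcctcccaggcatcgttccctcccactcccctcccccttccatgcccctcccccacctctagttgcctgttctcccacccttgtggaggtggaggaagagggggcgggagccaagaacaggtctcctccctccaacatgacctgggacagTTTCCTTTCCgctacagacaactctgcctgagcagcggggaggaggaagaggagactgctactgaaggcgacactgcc
Tigit: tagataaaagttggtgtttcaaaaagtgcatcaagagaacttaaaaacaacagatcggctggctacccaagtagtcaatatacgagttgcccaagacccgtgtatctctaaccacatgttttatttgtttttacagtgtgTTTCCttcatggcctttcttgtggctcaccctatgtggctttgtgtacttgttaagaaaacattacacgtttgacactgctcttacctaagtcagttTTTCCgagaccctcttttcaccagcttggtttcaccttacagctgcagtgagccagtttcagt
Both windows held 2 matches, next to each other in *Pdcd1* and apart in *Tigit*, and 61.3% of 32851 mouse promoters of this length held at least 1 match. Both windows held no match to TGANTCA (AP-1, in 7.81% of promoters), TTCNNNGAA (the GAS element, in 8.3%) or GAAANNGAA (a core of the interferon response element, in 8.56%) on either strand. Matches describe letters only, and 8 of the 10 genes had a promoter in the table used.

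The genes of the ligands of PD-1 lie 22823 bases apart on chromosome 19. Only 1 of them, *Pdcd1lg2*, passed the test, where 28.7% of all genes passed in either direction. *Pdcd1lg2* (chr19:29485409-29545647 on mm9, plus strand) was at 4.26, 6.17 and 5.69 CPM in the vehicle-treated tumors and between 7.54 and 25.3 CPM (median 12.05) in the BI-treated tumors. The groups did not overlap, and BI replicate 5 was far above the other BI-treated tumors. The rise was 2.48-fold (1.48 to 4.17, log2 fold change 1.31 with a standard error of 0.34, adjusted p = 0.014, edgeR) and came to 1.03 on the log2 scale without BI replicate 5. Without vehicle replicate 1 it missed the threshold (adjusted p = 0.0646, edgeR), as it did without vehicle replicate 3.

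*Cd274* (chr19:29441945-29462585 on mm9, plus strand) was the most abundant of the 10 genes, at 115, 117 and 141 CPM in the vehicle-treated and between 122 and 160 CPM (median 133) in the BI-treated tumors. The groups overlapped, and the ratio of their levels was 1.10 (95% interval 0.961 to 1.27, adjusted p = 0.27, edgeR), so that an increase beyond 1.27-fold lies outside the interval. Within a tumor, the log2 ratio of *Pdcd1lg2* to *Cd274* in CPM was -4.52 under vehicle and -3.465 under BI. The group means differed by 1.05, and the ratio did not overlap between the groups, with 6 of 6 tumors higher under BI (exact permutation p = 0.0238, two-sided), with an adjusted p of 0.119 over 10 ratios. Of 11 genes tested on an axis from interferon gamma, the main inducer of PD-L1, to the PD-L1 protein, 3 rose and 2 fell. Their median log2 fold change was 0.10. Among all genes, 14.6% passed as higher and 14.1% as lower. *Ifng* itself was at 2.63 ± 0.35 CPM under vehicle and 4.98 ± 1.43 CPM under BI (adjusted p = 0.0183, edgeR). Its groups overlapped, with 2.835 CPM in BI replicate 4 and 2.946 CPM in vehicle replicate 3. The receptor chain *Ifngr1* went from 66.6 to 94.7 CPM (adjusted p = 0.0012). *Irf1* (312.2 and 316.5 CPM, adjusted p = 0.894) and *Socs1* (19.1 and 21.3 CPM, adjusted p = 0.549) of the same list did not pass. *Jak2*, a kinase of the interferon gamma receptor, fell from 485 to 365 CPM (adjusted p = 0.0010), and *Cmtm4*, which protects PD-L1 from degradation, from 76.0 to 62.1 CPM (adjusted p = 0.0037).

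The promoters of both ligands (RefSeq, GRCm38.p6, same window, plus strand, chr19:29367188-29367487 for *Cd274* and chr19:29410669-29410968 for *Pdcd1lg2*), chosen after the values were seen, are printed to set the neighbors side by side. Capitals mark GGAAA and, in *Cd274*, a match to the interferon response element core GAAANNGAA on the other strand (TTCGGTTTC).
Cd274: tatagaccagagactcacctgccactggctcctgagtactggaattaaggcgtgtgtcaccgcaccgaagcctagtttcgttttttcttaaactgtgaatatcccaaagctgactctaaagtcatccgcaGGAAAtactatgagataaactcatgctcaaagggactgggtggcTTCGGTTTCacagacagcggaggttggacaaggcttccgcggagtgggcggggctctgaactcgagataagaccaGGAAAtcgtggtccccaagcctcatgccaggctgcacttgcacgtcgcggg
Pdcd1lg2: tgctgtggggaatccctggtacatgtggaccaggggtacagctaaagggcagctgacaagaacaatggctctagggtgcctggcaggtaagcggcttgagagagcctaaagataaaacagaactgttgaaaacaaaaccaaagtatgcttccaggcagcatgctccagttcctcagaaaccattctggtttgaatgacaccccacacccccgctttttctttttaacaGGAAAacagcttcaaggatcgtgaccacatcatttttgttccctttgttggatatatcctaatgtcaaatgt
The *Cd274* window held 2 matches to GGAAA and 1 to the interferon core, and the *Pdcd1lg2* window held 1 match to GGAAA. No match to TGANTCA or TTCNNNGAA was found in these windows.

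The genes tied to regulatory T cells were *Foxp3*, *Il2ra*, *Icos* and *Ctla4*, the last of which is also 1 of the 5 inhibitory receptors above. Of these 4 genes, 1 (*Icos*) passed the test, where 28.7% of all genes passed in either direction. *Foxp3* (chrX:7156802-7172369 on mm9, plus strand) was the least abundant of the 10 genes, at 2.705, 4.205 and 2.59 CPM under vehicle and between 2.704 and 5.67 CPM (median 3.48) under BI. The groups overlapped, and the ratio of 1.21 (95% interval 0.84 to 1.75, adjusted p = 0.418, edgeR) was not distinguishable from 1 at this depth and number of tumors. Exons of *Foxp3* overlap those of *Ppp1r3f* (373 bases) and *Ccdc22* (590 bases) on the opposite strand and of 4930524L23Rik (267 bases) on the same strand. The sources used here do not state whether strand was used in counting, and reads in these stretches are uncertain. *Ppp1r3f* (12.1 and 12.8 CPM) and *Ccdc22* (37.8 and 34.8 CPM) did not pass the edgeR test (adjusted p = 0.662 and 0.238).

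*Il2ra*, the high-affinity chain of the interleukin-2 receptor (chr2:11564419-11614818 on mm9, plus strand), was at 9.12, 8.86 and 9.605 CPM under vehicle and between 8.74 and 18.6 CPM (median 12.1) under BI. BI replicate 6 was below all vehicle-treated tumors and the other 5 BI-treated tumors above them, with a ratio of 1.39 (1.05 to 1.84, adjusted p = 0.0727, edgeR). This gene lay near the threshold: it passed with DESeq2 (adjusted p = 0.0433), with edgeR's likelihood ratio test (0.0498), and without BI replicate 6 (0.0199). *Ctla4* (chr1:60943844-60972676 on mm9, plus strand) was at 4.58, 3.94 and 4.54 CPM under vehicle and between 3.94 and 7.56 CPM (median 5.49) under BI. The ratio was 1.26 (0.949 to 1.67, adjusted p = 0.204, edgeR), and the groups overlapped through BI replicate 8.

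*Icos* encodes an activating relative of CD28 and lies 62094 bases from *Ctla4* (chr1:61034771-61057164 on mm9, plus strand). It was at 7.84, 6.62 and 7.48 CPM under vehicle and between 8.05 and 13.3 CPM (median 10.99) under BI. The groups did not overlap, by a small margin, and the rise was 1.48-fold (1.17 to 1.88, adjusted p = 0.0194, edgeR). It missed the threshold without vehicle replicate 2 (adjusted p = 0.0774) or vehicle replicate 3 (0.061). *Cd28*, the activating receptor that shares ligands with CTLA-4, rose 1.83-fold (adjusted p = 0.0119, edgeR), the ICOS ligand *Icosl* went from 11.3 to 13.8 CPM (adjusted p = 0.0397), and the CD28 ligands *Cd80* and *Cd86* did not pass (adjusted p = 0.253 and 0.261).

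**Figure D2:**
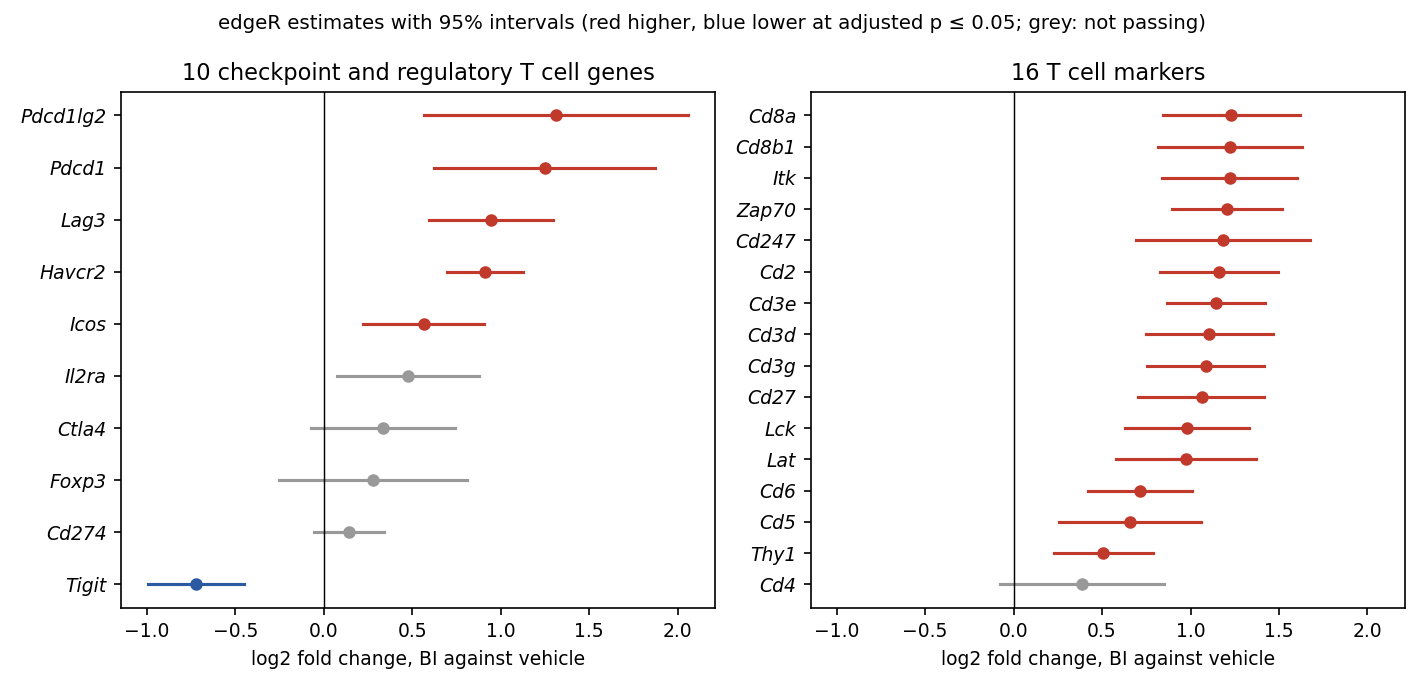
edgeR log2 fold change (x axis, BI against vehicle) with its 95% interval for the 10 genes (left) and the 16 T cell markers (right), in red where higher and in blue where lower at an adjusted p of at most 0.05. The 10 genes span -0.72 (*Tigit*) to 1.31 (*Pdcd1lg2*), while 15 of the 16 T cell markers rose and *Cd4* (0.39, adjusted p = 0.192) did not pass.

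Single BI-treated tumors differed in which of these genes they held high. BI replicate 4 was the highest of the 6 for *Foxp3*, *Il2ra*, *Ctla4* and *Icos*, and the lowest for *Pdcd1*, *Lag3* and *Cd274*. That tumor also had the highest *Cd4* (10.7 CPM, with 5.02 to 7.72 CPM in the other 5) and the lowest *Cd8a* (28.2 CPM, with 35.3 to 50.5 CPM in the others). BI replicate 5 was the highest for *Lag3*, *Cd274* and *Pdcd1lg2*, and BI replicate 6 was the highest for *Pdcd1* and *Tigit* and the lowest for *Foxp3* and *Il2ra*. Without BI replicate 4, the log2 fold change was 0.13 for *Foxp3* in place of 0.28, 0.34 for *Il2ra* in place of 0.47, 0.22 for *Ctla4* in place of 0.33 and 1.39 for *Pdcd1* in place of 1.25, and no call among these changed. Without vehicle replicate 2, the highest of the vehicle-treated tumors for *Foxp3*, its log2 fold change was 0.53 and still did not pass (adjusted p = 0.179, edgeR).

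**Figure D3:**
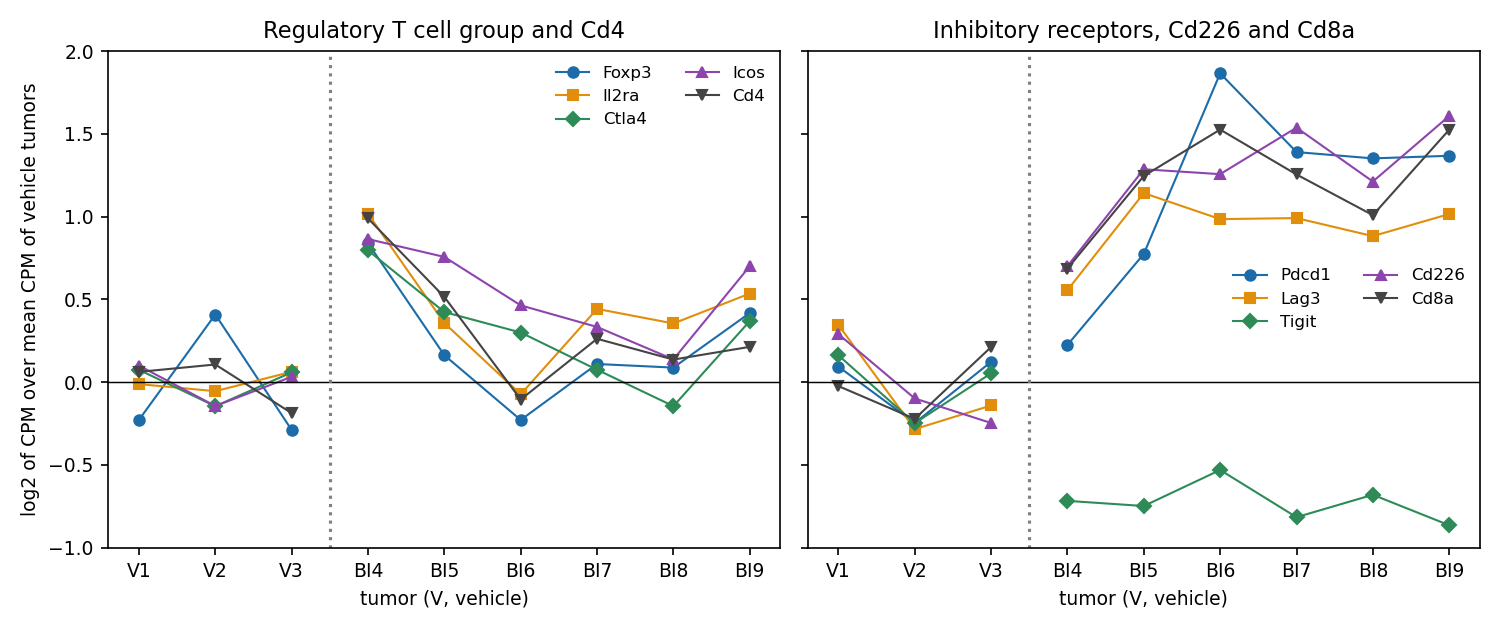
Log2 of the CPM in each tumor over the mean CPM of the 3 vehicle-treated tumors (y axis), by tumor (x axis, V1 to V3 vehicle, BI4 to BI9 treated), for the regulatory T cell group with *Cd4* (left) and for *Pdcd1*, *Lag3*, *Tigit*, *Cd226* and *Cd8a* (right). BI replicate 4 is the highest BI-treated tumor for all 5 genes on the left and the lowest for *Pdcd1*, *Lag3*, *Cd226* and *Cd8a* on the right, and lines join tumors only to guide the eye.

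Levels of different genes were compared as CPM per kilobase of the deposited gene length. For *Pdcd1lg2* that length is 3415 bases, while its annotated exons on mm9 hold 1645 bases, so that its place in the orders below depends on the length used. Under vehicle, *Cd274* led with 34.2 ± 4.1 CPM per kilobase (SD, n = 3), followed by *Havcr2* (9.504), *Tigit* (8.55), *Pdcd1* (5.00), *Lag3* (2.94), *Ctla4* (2.25), *Icos* (2.25), *Il2ra* (2.08), *Pdcd1lg2* (1.57) and *Foxp3* (0.806). In that order, neighbors differed within a tumor by more than the SD of their difference, except *Ctla4* and *Icos*. Under BI the order was *Cd274* with 37.8 ± 3.7 CPM per kilobase (SD, n = 6), *Havcr2* (17.9), *Pdcd1* (11.9), *Lag3* (5.63), *Tigit* (5.18), *Pdcd1lg2* (3.92), *Icos* (3.33), *Il2ra* (2.89), *Ctla4* (2.84) and *Foxp3* (0.973). Neighbors from *Lag3* down to *Ctla4* in that order did not differ beyond their spread. *Tigit* was thus above *Pdcd1* in 3 of 3 vehicle-treated tumors, while *Cd274* was first and *Foxp3* last in both groups.

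The 10 genes were then set against the T cell markers of the same tumor, as the log2 CPM of the gene minus the mean log2 CPM of the 16 markers. That mean was between 2.76 and 2.88 under vehicle and between 3.62 and 3.99 under BI. The group means of *Pdcd1*, *Lag3*, *Havcr2* and *Pdcd1lg2* relative to the markers differed by 0.19, -0.03, -0.06 and 0.23 on the log2 scale. Single BI-treated tumors varied widely around these means, from -0.11 to 1.25 for *Pdcd1* (0.28 to 0.56 under vehicle) and from -1.06 to 0.93 for *Pdcd1lg2* (-0.75 to -0.12 under vehicle). *Tigit* (-1.68) and *Cd274* (-0.83) were lower relative to the markers in 6 of 6 BI-treated tumors, each with the smallest p the design allows (exact permutation p = 0.0238, two-sided). *Foxp3* (-0.71), *Ctla4* (-0.67), *Il2ra* (-0.53) and *Icos* (-0.43) were below all vehicle-treated tumors in 5 of 6 BI-treated tumors (exact permutation p = 0.0714, 0.0476, 0.0952 and 0.0952). Because the marker mean itself rose without overlap, a gene whose own level stayed unchanged also comes out lower relative to it. *Cd274*, with a ratio of 1.10 between the groups, was such a gene. *Tigit* fell in its own level without overlap, so that it had to separate the groups relative to the markers as well. The share of all genes that were lower in this way was not computed. None of the 10 differences passed when adjusted over the 10 genes, with lowest adjusted p of 0.119, and in this design a gene can pass only if at least 5 of the 10 pass together. An edgeR fit with the marker level as an offset, chosen after these results were seen, had 6 of the 10 genes lower (*Tigit*, *Cd274*, *Foxp3*, *Ctla4*, *Il2ra*, *Icos*) and none higher at an adjusted p of at most 0.05 (none higher also at an unadjusted p of at most 0.05), but it had 85.7% of all genes lower and 0.773% higher, so that nothing is read from that count.

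The remaining ratios within a tumor did not pass either, and 10 were tested in all. *Foxp3* relative to *Cd8a* differed by -0.95 on the log2 scale, below all vehicle-treated tumors in 5 of 6 BI-treated tumors (exact permutation p = 0.0714, adjusted p = 0.238), whereas *Foxp3* relative to *Cd4* differed by -0.08 (adjusted p = 0.767). *Havcr2* relative to the macrophage receptor gene *Csf1r* differed by 0.01 (adjusted p = 0.905), and the sign of that value changed when single tumors were left out. The ratios of *Ctla4* and *Icos* to *Cd28* differed by -0.57 and -0.33 (adjusted p = 0.298 and 0.476), and *Lag3* to *Cd8a* by -0.27 (adjusted p = 0.476, exact permutation tests). *Il2ra* to *Foxp3* differed by 0.18 (adjusted p = 0.767), and 1 further ratio is not reported. Among the 6 BI-treated tumors, none of the 10 genes correlated with the T cell marker mean after adjustment (Pearson r between -0.66 for *Pdcd1lg2* and 0.65 for *Pdcd1*, Spearman rho of -0.77 and 0.71, lowest adjusted permutation p of 0.796 and 0.583). Leaving out BI replicates 4 and 8, which were farthest from the median marker level, changed r to -0.92 and 0.64 for these genes, and from 0.57 to -0.85 for *Lag3*.

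Markers of other cell types were counted in the same way, to be read beside the 14.6% of all genes that passed as higher and the 14.1% that passed as lower. Macrophage markers rose in 9 of 10 genes and 1 (*Cd14*) fell, with a summed level of 1849 to 2408 CPM under vehicle and 3486 to 4172 CPM under BI, led by *C1qb*, *Csf1r* and *Adgre1* in p, with *Mrc1* the most abundant. NK cell markers rose in 6 of 7 genes tested (summed level 30.3 to 40.5 against 77.8 to 97.3 CPM, with *Klrk1*, *Prf1* and *Klrb1c*), and dendritic cell markers in 6 of 10 with 1 lower (168 to 192 against 174 to 250 CPM). The 4 CD3 chains all rose. Mast cell markers rose in 6 of 8 with 1 lower, endothelial markers in 3 of 8, B and plasma cell markers in 2 of 6 tested and fibroblast markers in 1 of 8, while 4 of 7 neutrophil and 2 of 8 epithelial markers fell. The part of the macrophage, NK and dendritic cell markers in the levels of *Havcr2*, *Pdcd1lg2*, *Cd274*, *Lag3* and *Tigit* was not tested beyond the ratio of *Havcr2* to *Csf1r*.

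Among partners of the 10 genes and other checkpoint genes, 13 of 22 tested rose and 2 fell, with a median log2 fold change of 0.36. Of all genes tested, 14.6% passed as higher and 14.1% as lower. *Il2rb*, the signaling chain that pairs with CD25, rose from 17.2 ± 2.1 to 39.3 ± 5.0 CPM (adjusted p = 5.40e-05, edgeR), where *Il2ra* did not pass. *Vsir*, which encodes the checkpoint molecule VISTA, rose from 101 to 183 CPM (adjusted p = 1.33e-04), and *Btla*, an inhibitory receptor, from 2.86 to 7.03 CPM (adjusted p = 6.21e-04). *Lgals3*, a proposed ligand of LAG-3 and the most abundant of the list, was at 461 ± 88 and 409 ± 61 CPM (adjusted p = 0.352).

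Of 19 genes tested that are associated with regulatory T cells beside the 10, 11 rose and none fell, with a median log2 fold change of 0.46. The shares over all genes tested were 14.6% higher and 14.1% lower. The lowest p belonged to *Entpd1*, which encodes the ATP-degrading enzyme CD39 (71.9 to 115 CPM, adjusted p = 7.57e-05, edgeR), *Batf*, a transcription factor of activated T cells (4.48 to 8.91 CPM, adjusted p = 1.13e-04), and *Nrp1*, a surface receptor (67.8 to 125 CPM, adjusted p = 2.06e-04). *Entpd1* and *Nrp1* are also made by macrophages and endothelial cells, and *Batf* by other activated T cells. *Nt5e*, which encodes CD73 and was the most abundant of the list, was at 308 ± 19 and 319 ± 25 CPM and did not pass (adjusted p = 0.615).

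Of 16 factors linked to T cell exhaustion and activation, 8 rose and none fell, with a median log2 fold change of 0.58. Beside this, 14.6% of all genes tested passed as higher and 14.1% as lower. *Slamf6*, a receptor of T and NK cells, went from 3.41 to 8.62 CPM (adjusted p = 5.66e-05, edgeR), *Tbx21*, the transcription factor of type 1 T cells and NK cells, from 1.46 to 4.43 CPM (adjusted p = 3.39e-04) and *Id2* from 68.4 to 112 CPM (adjusted p = 4.21e-04). *Tox*, a transcription factor required for T cell exhaustion, was at 1.47 ± 0.24 CPM under vehicle and 4.57 ± 2.38 CPM under BI (adjusted p = 0.0118), and was highest in BI replicate 6 (8.84 CPM), where *Pdcd1* was highest, and lowest of the BI-treated tumors in BI replicate 4 (1.89 CPM), where *Pdcd1* was lowest. *Cd38*, the most abundant of the list, did not pass (adjusted p = 0.349). Among the BI-treated tumors, *Cd38* was also highest in BI replicate 6, and *Cd8a* was level in BI replicates 6 and 9 (50.47 and 50.44 CPM). Both genes were lowest in BI replicate 4. The match with *Pdcd1* was thus not particular to *Tox*.

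**Figure D4:**
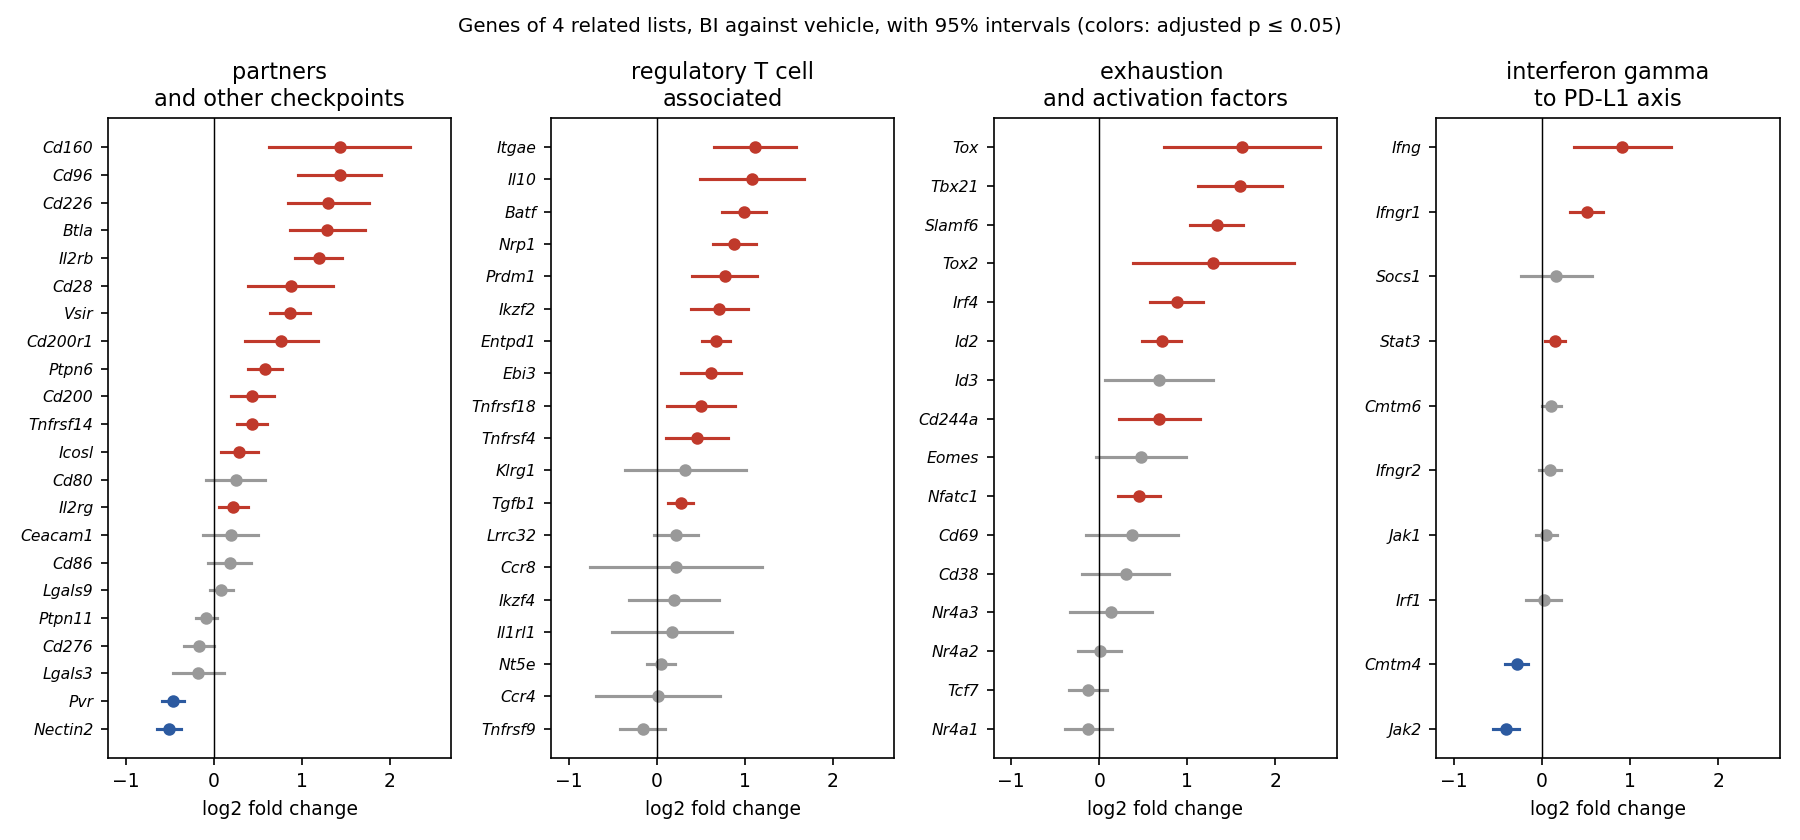
edgeR log2 fold change (x axis, BI against vehicle) with its 95% interval for tested genes of 4 related lists (1 gene of the last list, which did not pass, is not shown), in red where higher and in blue where lower at an adjusted p of at most 0.05. Rising genes make up 13 of 22 partners, 11 of 19 regulatory T cell associated genes, 8 of 16 exhaustion and activation factors and 3 of 11 genes of the interferon gamma axis, and *Pvr*, *Nectin2*, *Cmtm4* and *Jak2* were lower. Of all genes tested, 14.6% were higher and 14.1% lower.

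For each of the 10 genes, the genes most alike in log2 CPM across the 9 tumors, after the mean of each group was removed, were sought among 12186 genes. *Ctla4* and *Icos* were alike (Pearson r = 0.95), each among the 3 genes nearest to the other. The gene nearest to *Il2ra* was *Copz1* (r = 0.99), to *Foxp3* *Btg1* (0.96), to *Tigit* *Sergef* (0.96), to *Pdcd1* *Gldc* (0.94), to *Havcr2* *Tnfrsf22* (0.97), to *Cd274* *Ttll4* (0.98) and to *Pdcd1lg2* *Atp6v0c-ps2* (0.93). The highest of so many coefficients over 9 tumors is large without any relation, and these values are descriptions only.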

How the data were processed

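RNA sequencing counts of 3 vehicle-treated and 6 BI-treated 4T1 tumors were used, grouped by the labels. Per the paper and labels, the authors aligned reads to mm9 with STAR (version not given in the sources used here) and deposited raw counts per RefSeq gene for 18755 genes, without normalization, beside the gene length in bases used here for CPM per kilobase. Symbols came from RefSeq by Entrez identifier (18700 genes), positions from GENCODE on mm9. Of 179 list entries, 3 had no gene in the counts.

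The counts entered a quasi-likelihood test of edgeR 4.0.16 (R 4.3.3) with no covariate, after TMM scaling (factors of 0.984 to 1.02) and filterByExpr (count minimum 10, total minimum 15), with Benjamini-Hochberg adjustment over 13966 genes. The script was tested on simulated data. CPM are TMM-normalized, with a prior count of 2 on the log2 scale. Intervals are 95% intervals of the model. Ratios and levels relative to T cell markers were compared by two-sided exact permutation over all 84 divisions of the tumors (scipy 1.17.1), with adjustment over 10. At the depths given, 3 counts correspond to 0.0886 to 0.177 CPM, for counting error only.

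The 10 genes and all lists were chosen with earlier results of these data known. Named genes are the 10, the genes of the ratios, the 3 lowest p among passing genes and the most abundant gene of each list, and the 3 most alike genes per gene. *Cd96*, *Nectin2*, *Cd80*, *Cd86*, *Btla*, *Icosl*, *Ifng*, *Irf1*, *Socs1*, *Tox*, *Cd14* and the neighbors of *Foxp3* are outside this rule and were chosen after their values were seen. Some genes that the rule names in marker lists are given only as counts, and some single genes, with 1 of the 10 ratios, are not reported here, though they stay in all counts and adjustments. Alternatives were RLE or library size scaling, no filter or at least 1 CPM in at least 3 tumors, DESeq2 1.42.0, limma-voom (limma 3.58.1), edgeR's likelihood ratio test, the 4 CD3 chains as T cell reference, a prior count of 0.5, and each tumor left out. The offset fit was added after seeing the data.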

Additional observations from a re-analysis of the deposited data

How the results depend on the processing

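No paired analysis was run because the labels and the paper describe no pairing of vehicle-treated with BI-treated tumors. The counts of rising and falling genes stayed within 5 to 6 and at 1 under the other normalizations, filters and tests. With each tumor left out in turn, 3 to 6 of the 10 genes rose, with 3 only without vehicle replicate 3, and 1 fell each time. Across all genes, 1474, 1516 and 1332 passed as higher without vehicle replicates 1, 2 and 3, beside 2040 with all tumors. Of the single genes, *Pdcd1lg2*, *Icos* and *Il2ra* changed side of the threshold, as given above, and the cause was not tested. With the T cell marker level as offset, 6 of the 10 genes were lower in place of 0, in a fit that also called most other genes lower. Leaving out 1 tumor reversed these small values: *Lag3* relative to T cell markers (0.131 without vehicle replicate 1, 0.0093 without BI replicate 4, range -0.121 to 0.131), *Havcr2* relative to T cell markers (0.015 without vehicle replicate 3, range -0.118 to 0.015), and the ratios *Havcr2*/*Csf1r* (-0.038 and -0.065 without vehicle replicates 1 and 2, -0.029, -0.036 and -0.027 without BI replicates 4, 8 and 9, range -0.065 to 0.133), *Foxp3*/*Cd4* (range -0.203 to 0.085) and *Il2ra*/*Foxp3* (-0.067 to 0.331), the last 2 reversed without vehicle replicate 2. No other fold change of the 10 genes, level relative to T cell markers or ratio given above changed sign when a tumor was left out. Fold changes of genes outside the 10 were not examined in this way. The correlations within BI-treated tumors were rerun only with the CD3 chains, the other prior count and without BI replicates 4 and 8, where the sign changed for some genes (*Lag3* above). With 3 vehicle-treated tumors, the exact tests cannot give a p under 0.0238, and the low counts of *Foxp3* (56 to 120 per tumor) leave a wide interval.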
